A study of Mus musculus with 9 samples.

Results

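The genes described here are the 8 mouse genes that write, copy and oxidise methyl groups on cytosine: Dnmt1, Dnmt3a, Dnmt3b, Dnmt3l, Uhrf1, Tet1, Tet2 and Tet3. They were chosen by symbol from 52609 annotated genes. The question taken from the series' title and labels was how lines of epiblast stem cells differ when Wnt signalling is altered. RNA-seq was available for 9 libraries in 4 groups, all labelled as epiblast stem cells, derived from dissected mouse epiblast and grown on inactivated mouse embryonic fibroblasts over gelatin. Every group was grown with 2 recombinant factors, 20 ng/mL of Activin A and 10 ng/mL of FGF2. The control group (2 libraries) is the line labelled control, with no inhibitor. The Dkk1_KO group (3 libraries) is a knockout line for Dkk1, which encodes a secreted Wnt antagonist, also without inhibitor. The IWP2 group (2 libraries) was kept in 5 µM IWP2, a Porcupine inhibitor that blocks Wnt secretion, and the IWP2_removed group (2 libraries) had IWP2 withdrawn after derivation. A second compound, SB431542, is named in the general treatment text, but no group's inhibitor label lists it. Each group is a single line as far as the labels go, so genotype or treatment and line of origin cannot be told apart. Nothing says that the libraries of a group came from separate cultures, and p-values therefore measure only the spread between these libraries.

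Methylation of CpG dinucleotides is set by Dnmt3a and Dnmt3b, which act on unmethylated DNA, and is copied after replication by Dnmt1, which Uhrf1 brings to hemimethylated sites. Dnmt3l resembles the de novo enzymes but has no catalytic activity, and it binds and stimulates both. The Tet enzymes oxidise 5-methylcytosine in a reaction that uses 2-oxoglutarate, and the oxidised base is then replaced by repair or diluted by replication. In the mouse, de novo methylation rises in the epiblast around implantation, while the trophoblast lineage stays less methylated.

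Libraries held between 10849490 and 17892751 estimated reads. The Dkk1 gene itself, in CPM (counts scaled to library size), fell from 7.86 ± 1.54 (SD, n = 2) in control to 0.889 ± 0.221 (SD, n = 3) in Dkk1_KO. It was at 2.89 and 0.348 CPM in the IWP2 libraries and 3.45 and 5.84 in the IWP2_removed libraries. A low level of Dkk1 was therefore not particular to Dkk1_KO. The label was checked against marker lists. The summed level of 10 epiblast and core pluripotency genes was 1350 to 1420 CPM in control, 971 to 2250 in IWP2, 1420 to 1740 in IWP2_removed and 558 to 603 in Dkk1_KO. Pou5f1 was at 442 and 473 CPM in the control libraries and between 1.14 and 1.70 CPM in the Dkk1_KO libraries, and Nanog at 170 and 169 against 1.84 to 2.17 CPM. Of the 10 genes 5 fell in Dkk1_KO by edgeR's test (Pou5f1, Nanog, Fgf5, Otx2 and Tdgf1), 2 rose, Utf1 (from a mean of 8.33 to 165 CPM) and Pou3f1 (14.3 to 82.5), and Sox2, Lin28a and Zic2 did not pass. The 9 naive pluripotency markers summed to 27.6 to 45 CPM in control and 551 to 565 CPM in Dkk1_KO. The 12 trophoblast and extraembryonic ectoderm markers summed to 121 to 123 CPM in control and 4560 to 4590 CPM in Dkk1_KO, where all 12 reached 1 CPM. The 12 feeder fibroblast markers summed to 5130 to 5390 CPM in control and 2630 to 2710 CPM in Dkk1_KO, and all 12 reached 1 CPM in every group. Primitive streak and mesoderm markers summed to 853 to 867 CPM in Dkk1_KO and 92.2 to 226 in control. Primordial germ cell markers summed to 235 to 242 CPM in Dkk1_KO and 37.2 to 39.8 in control. In the same order, extraembryonic endoderm markers were at 31.2 to 34.1 and 10.3 to 11.7. Neural ectoderm markers went the other way, at 44.8 to 51.3 and 360 to 404. The trophoblast list shares Eomes and Hand1 with the streak list and Tfap2c with the germ cell list. The Dkk1_KO libraries are therefore referred to by their label and not as epiblast cells. In RNA from whole cultures, fewer cells of a type and less RNA per cell cannot be told apart, and the part of these marker changes in the results below was not tested.

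In the Dkk1_KO line the cofactor Dnmt3l and the de novo enzyme Dnmt3b rose, while Dnmt3a, Tet3 and Uhrf1 fell. Dnmt1, Tet1 and Tet2 did not pass the test. Thus 5 of 8 members were called, 2 higher and 3 lower, by edgeR's quasi-likelihood test with Benjamini-Hochberg adjustment over 18096 genes at an adjusted p below 0.05. Dnmt3l passed the filter on low counts only through the knockout libraries. Its place in this count and in those below was therefore fixed in advance. The remaining calls were Dnmt3b higher and Dnmt3a, Tet3 and Uhrf1 lower. The background in this comparison was high, with 44.3% of all tested genes called, 21.3% (3857 genes) higher and 23.0% (4161 genes) lower. By limma on log2(TPM + 1), TPM being the deposited level corrected for transcript length, and where the median of all genes was -0.15, the split was 1892 higher and 3145 lower. The median log2 change was -0.28 for the members and -0.03 for all tested genes. The control and Dkk1_KO libraries did not overlap for 6 of the 8 members, against 73.4% of all tested genes. Against that background a count of 5 in 8 is not read as a result about the members as a set, and what follows is about the size and direction of single members. The 3 Dkk1_KO libraries differed from each other by a chi-square per degree of freedom of 1.79 to 2.27, against 32.9 to 94.4 between replicates of the other groups. When they were averaged to 1 library, 3 of 8 members (Dnmt3l, Dnmt3b and Dnmt3a) passed the threshold.

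**Figure D1:**
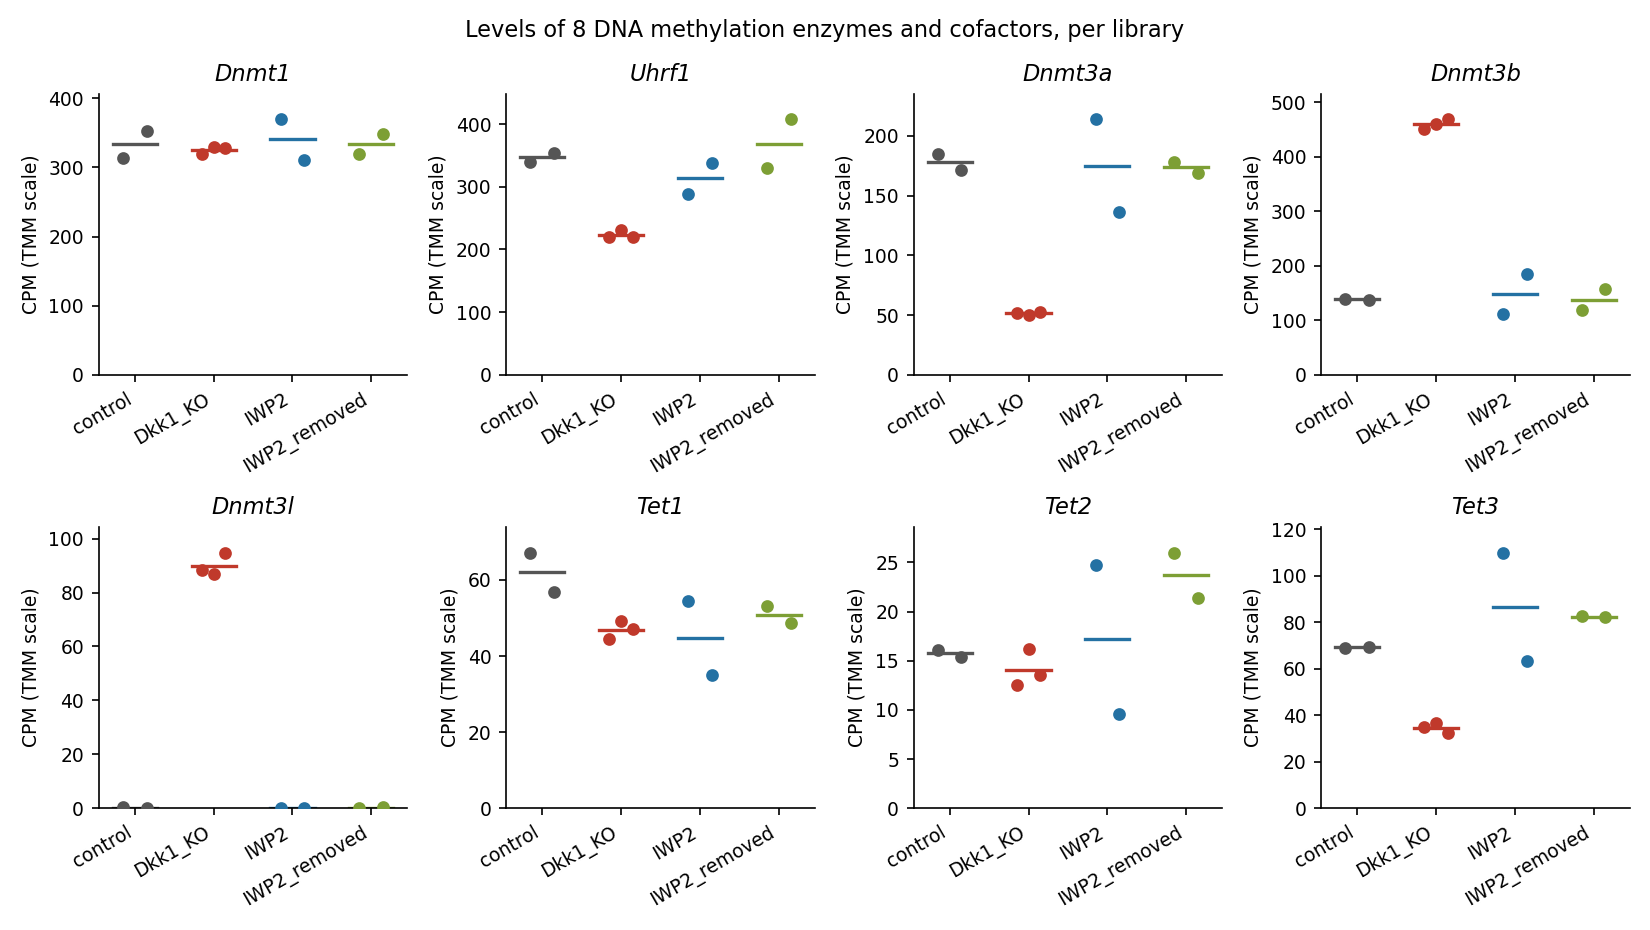
Level of each of the 8 members in each library, in TMM-scaled CPM on linear axes that start at 0, 1 panel per gene, with points for libraries and a line at each group mean. The Dkk1_KO libraries sit above all others for Dnmt3b and Dnmt3l and below all others for Dnmt3a, Uhrf1 and Tet3, and the 2 IWP2 libraries lie apart from each other for Dnmt3a, Dnmt3b, Tet2 and Tet3.

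Dnmt1, the maintenance methyltransferase (GRCm38 chr9:20907209-20959888, minus strand), was at 314 and 353 CPM in control, 320, 329 and 328 in Dkk1_KO, 370 and 311 in IWP2, and 319 and 349 in IWP2_removed. All 4 groups overlapped. The log2 change in Dkk1_KO was -0.03 ± 0.13 (SE) with an adjusted p of 0.846 by edgeR's quasi-likelihood test, and its 95% interval ran from -0.32 to 0.25. A change of the size measured for Uhrf1 lies outside that interval.

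Uhrf1, the hemimethylated-CpG reader that recruits Dnmt1 (chr17:56303321-56323486, plus strand), was at 340 and 354 CPM in control and 220, 231 and 220 in Dkk1_KO. The knockout libraries were the lowest of all 9, below the 289 and 338 of IWP2 and the 330 and 408 of IWP2_removed. The mean fell to 64.4% of control, a log2 change of -0.63 ± 0.13 (SE, adjusted p = 0.00498, edgeR's quasi-likelihood test). This call was lost when the Dkk1_KO libraries were averaged to 1 (log2 change -0.62, adjusted p = 0.178). Of the 2 genes of the maintenance step, Uhrf1 was thus lower in the knockout line and Dnmt1 was within 0.32 log2 units of control at the 95% level, and the difference between the 2 genes was not tested.

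Dnmt3a (chr12:3806007-3914443, plus strand), a de novo methyltransferase, was at 185 and 171 CPM in control, 52.1, 50.4 and 52.6 in Dkk1_KO, 214 and 136 in IWP2, and 178 and 169 in IWP2_removed. The 3 knockout libraries lay below all 6 others, with no overlap. The mean in Dkk1_KO was 29.1% of control, a log2 change of -1.78 ± 0.17 (SE, adjusted p = 9.1e-05, edgeR's quasi-likelihood test). Each of the 20 alternative settings kept that call, with adjusted p from 8.62e-16 to 0.0152.

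Dnmt3a has a long form and a shorter form from an internal start, known as Dnmt3a2, which lacks the amino-terminal part. Transcripts of the long form (908 codons, starts at 3807030 and 3807160) fell by 1.77 ± 0.19 on the log2 scale in Dkk1_KO (adjusted p = 0.00192, edgeR) and those of the short form (689 codons, starts at 3891728 and 3891744) fell by 2.14 ± 0.33 (adjusted p = 0.00778, edgeR). Both calls were lost when the Dkk1_KO libraries were averaged to 1 (adjusted p = 0.152 and 0.119), and that of the short form also without control replicate 1 (adjusted p = 0.0509). The short form made up 40.1% and 35.5% of coding Dnmt3a TPM in control, 23.1%, 31.2% and 39.8% in Dkk1_KO, 37.8% and 37.8% in IWP2, and 37.1% and 41.8% in IWP2_removed. These ranges overlap, and the change of the share in Dkk1_KO, -0.40 ± 0.41 on the log2 scale, did not pass limma's diffSplice test (adjusted p = 0.872). In control the short form held 266 and 285 estimated reads and the long form 1680 and 2271. The main short transcript, Dnmt3a-205, is annotated at 2328 bases, with only 16 stretches of 31 bases not found in other Dnmt3a transcripts. The share in TPM therefore depends on this annotated length and is uncertain. No change in the balance of the forms was detectable.

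Dnmt3b, the other de novo methyltransferase (chr2:153649450-153687730, plus strand), moved the opposite way. It was at 139 and 138 CPM in control and at 450, 460 and 469 CPM in Dkk1_KO, against 111 and 185 in IWP2 and 118 and 158 in IWP2_removed. The knockout libraries were above all others, and their mean was 331% of control (log2 change 1.73 ± 0.23 SE, adjusted p = 0.000433, edgeR's quasi-likelihood test, with 4.66e-13 to 0.0176 over 20 alternatives). The control libraries lay inside the range of both IWP2 groups.

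Dnmt3b is spliced into forms with and without cassette exons, and the forms with and without an exon pair near the 3′ end of the coding sequence moved unequally. Forms that lack this pair, such as the one known as Dnmt3b3, miss part of the catalytic domain and have little or no activity of their own. The pair (exons 21 and 22 of the transcript Dnmt3b-202, 189 bases or 63 codons, GRCm38 chr2:153683608-153684477, plus strand) and a second cassette exon (exon 10, 60 bases or 20 codons, chr2:153670849-153670908) are printed because the transcript groups below differ by them. Capitals mark the cassette exons as spliced, and the 15 lower-case bases on either side belong to the neighbouring exons.
Dnmt3b exons 21 and 22: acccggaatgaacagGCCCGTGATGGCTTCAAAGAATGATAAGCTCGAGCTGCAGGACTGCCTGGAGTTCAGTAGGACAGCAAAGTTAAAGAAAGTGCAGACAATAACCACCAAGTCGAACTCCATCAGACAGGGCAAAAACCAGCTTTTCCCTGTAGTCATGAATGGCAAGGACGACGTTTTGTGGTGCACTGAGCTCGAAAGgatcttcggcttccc
Dnmt3b exon 10: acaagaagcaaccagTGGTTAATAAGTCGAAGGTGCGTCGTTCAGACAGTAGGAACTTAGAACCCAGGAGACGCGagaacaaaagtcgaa
No coding Dnmt3b transcript has a 31-base stretch of its own, so single transcripts could not be told apart and only sums over transcripts with and without an exon were read. These groupings were chosen after transcript values had been seen.

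Transcripts with the exon pair (6 transcripts) summed to 14.9 and 12 TPM in control and to 61.7, 64.3 and 63.1 TPM in Dkk1_KO. The same sum was 11.1 and 13.4 TPM in IWP2 and 9.54 and 11.1 TPM in IWP2_removed. The knockout libraries were far above control and the IWP2_removed libraries slightly below it. Transcripts without the pair (4 transcripts) were at 13.1 and 12.1 TPM in control and at 8.67, 8.78 and 11.5 TPM in Dkk1_KO. The form with the pair rose by 2.52 ± 0.24 (log2, SE, adjusted p = 0.00122, edgeR), and for the form without it the log2 change was -0.14 ± 0.28 (adjusted p = 0.833). The first of these calls was lost when the Dkk1_KO libraries were averaged to 1 (log2 change 2.61, adjusted p = 0.083). The gain of Dnmt3b RNA in the knockout line was therefore measured in the forms that hold the exon pair.

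As a share of the TPM of these 10 coding transcripts, the form with the pair was 53.2% and 49.9% in control and 87.7%, 88.0% and 84.5% in Dkk1_KO. It was 51.4% and 47.7% in IWP2 and 44.4% and 40.8% in IWP2_removed, below every knockout library. The difference between Dkk1_KO and control was 2.68 ± 0.37 on the log2 scale against the rest of the gene (adjusted p = 0.00287, limma's diffSplice). The call was lost when the Dkk1_KO libraries were averaged to 1 (adjusted p = 0.361) and without control replicate 2 (adjusted p = 0.0778). In IWP2 the share differed from control by -0.04 ± 0.41 and in IWP2_removed by -0.49 ± 0.42, neither past the test. By the planned share test, edgeR's diffSpliceDGE, the natural-log change in Dkk1_KO was 0.54 for the forms with the pair (adjusted p = 0.613). For the forms without it, that test gave -1.31 on the same scale (adjusted p = 0.00861). Neither value is in the log2 units of the limma result.

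The 60-base exon behaved otherwise. It was present in 90.8% and 70.9% of coding Dnmt3b TPM in control, in 87.3%, 89.9% and 86.7% in Dkk1_KO, in 51.8% and 34.5% in IWP2, and in 54.0% and 51.1% in IWP2_removed. All 4 libraries of the IWP2 groups were below all control and knockout libraries. The share in IWP2 against control was -2.59 ± 0.61 (log2, SE) with a raw p of 0.000891 and an adjusted p of 0.169 (limma's diffSplice), so it did not pass after adjustment, although it did without IWP2 replicate 1 (adjusted p = 0.0129) and with a block by the letter that the deposited files carry (adjusted p = 0.0333). In IWP2_removed the same share differed from control by -2.05 ± 0.61 (adjusted p = 0.468). The 2 comparisons share the control libraries, which themselves differed more in this share than the IWP2 libraries did.

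**Figure D2:**
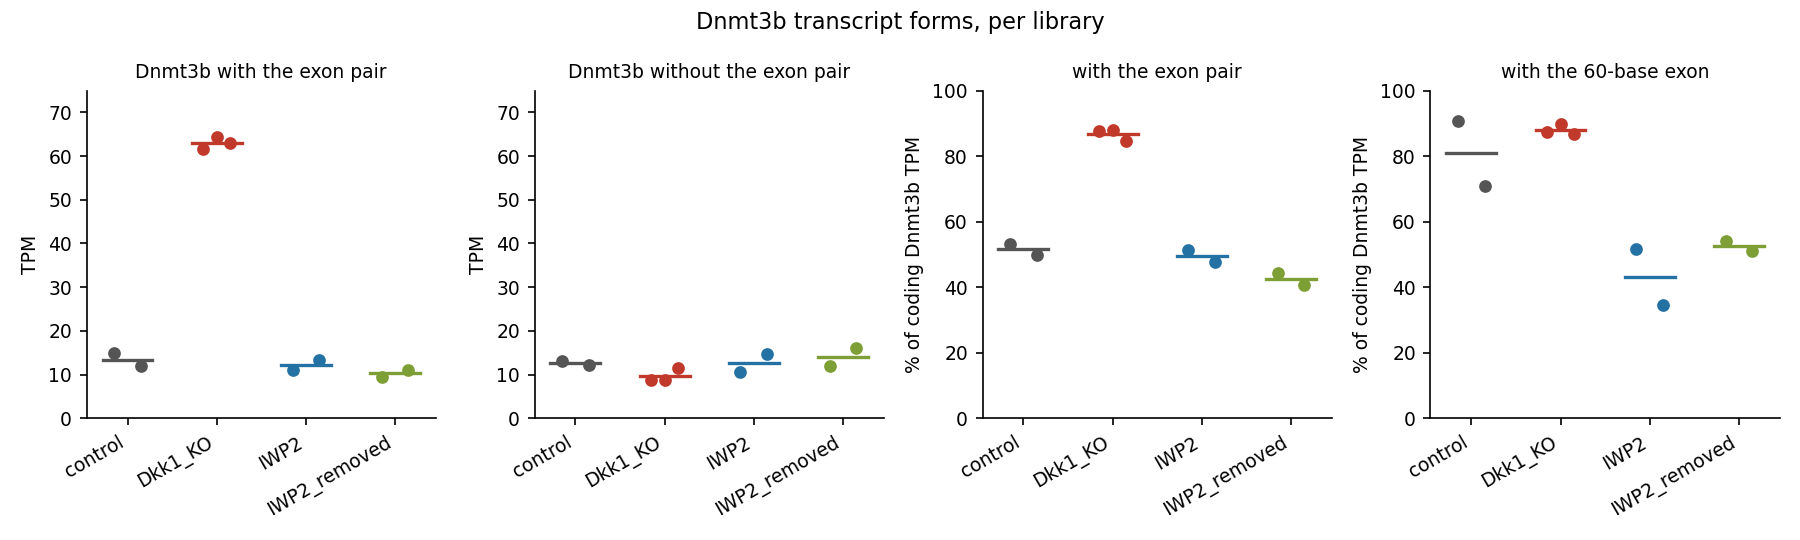
Summed TPM of Dnmt3b transcripts with and without the exon pair, and the percentage of coding Dnmt3b TPM with the pair and with the 60-base exon, by library, with a line at each group mean. The share with the pair was 84.5% to 88.0% in the Dkk1_KO libraries and 40.8% to 53.2% in the other 6, while the share with the 60-base exon was lowest in the IWP2 and IWP2_removed libraries.

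Dnmt3l, the cofactor without catalytic activity (chr10:78041947-78063622, plus strand), was almost absent outside the knockout line. The control libraries held 4 and 2 estimated reads, the IWP2 libraries 3 and 5, and the IWP2_removed libraries 5 and 5. The Dkk1_KO libraries held 1262, 1143 and 1340. In CPM these are 0.356 and 0.124 in control against 88.4, 86.8 and 94.8 in Dkk1_KO. Summed over libraries, the ratio of reads to total reads was 377 (exact 95% interval 173 to 1030, counting error only). The fitted log2 change was 8.61 ± 0.30 (SE, adjusted p = 1e-06, edgeR's quasi-likelihood test). Dnmt3l passed the filter on low counts only through the knockout libraries, so it had to differ in that comparison, and the counts are the better description.

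The Dnmt3l reads of the knockout line were assigned mostly to 2 transcripts of the same coding sequence (421 codons) that begin at 78049842 and 78049959. Dnmt3l-208 was at 26.2, 22.2 and 26.9 TPM in Dkk1_KO and Dnmt3l-201 at 10.7, 12.9 and 12.3 TPM, both at 0.115 TPM or less in every other library. The 250 bases before the first of these starts and the 250 bases before the start of Dnmt3b are shown, from the RefSeq promoter table for GRCm38.p6, because both genes were higher in Dkk1_KO. All 8 members had an entry. Capitals mark each CpG, the letters CG, which read the same on the other strand.
Dnmt3l, chr10:78049592-78049841, plus strand: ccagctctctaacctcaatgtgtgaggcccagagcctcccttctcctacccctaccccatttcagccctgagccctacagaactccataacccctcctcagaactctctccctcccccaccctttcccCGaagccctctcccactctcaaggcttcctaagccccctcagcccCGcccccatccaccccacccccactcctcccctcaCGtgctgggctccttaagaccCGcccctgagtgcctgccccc
Dnmt3b, chr2:153649199-153649448, plus strand: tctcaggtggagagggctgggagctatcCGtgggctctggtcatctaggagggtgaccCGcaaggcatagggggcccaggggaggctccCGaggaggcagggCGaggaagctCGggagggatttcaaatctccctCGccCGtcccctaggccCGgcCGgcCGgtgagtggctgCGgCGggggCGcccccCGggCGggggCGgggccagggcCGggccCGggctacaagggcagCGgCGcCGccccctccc
The Dnmt3l window holds 4 CpG, and 44.4% of the 32851 windows of this length hold that many or fewer. The Dnmt3b window holds 21 CpG, and 16.3% of windows hold that many or more, with a median of 6. These 2 windows are therefore unlike in CpG content. The Dnmt3l window lies before the start of Dnmt3l-201 and not that of Dnmt3l-208, which held more TPM. No methylation was measured here.

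Tet3, a dioxygenase that oxidises 5-methylcytosine (chr6:83362373-83459084, minus strand), was at 69.1 and 69.6 CPM in control and 34.9, 36.6 and 32.3 in Dkk1_KO. It was at 110 and 63.3 in IWP2 and 82.7 and 82.3 in IWP2_removed, so the knockout libraries were the lowest of the 9. The mean fell to 49.9% of control (log2 change -1.0 ± 0.20 SE, adjusted p = 0.00424, edgeR's quasi-likelihood test). Averaging the Dkk1_KO libraries to 1 ended the call (log2 change -0.99, adjusted p = 0.105). Its main transcript Tet3-202, 1668 codons, fell by 1.01 ± 0.19 on the log2 scale (adjusted p = 0.0153, edgeR on transcripts).

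Tet1 (chr10:62804570-62908996, minus strand), the family member best known from pluripotent cells, was at 67.2 and 56.8 CPM in control and 44.6, 49.2 and 47.1 in Dkk1_KO. The IWP2 libraries were at 54.5 and 35 and the IWP2_removed libraries at 53.1 and 48.6, so both control libraries were the highest of the 9. In Dkk1_KO the mean was 75.8% of control, a log2 change of -0.40 ± 0.18 that did not pass edgeR's quasi-likelihood test (adjusted p = 0.112). It did pass when only the control and Dkk1_KO libraries were fitted (adjusted p = 0.00987) and without IWP2 replicate 1 (0.0155) or IWP2 replicate 2 (0.0147).

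Tet2 (chr3:133463679-133545139, minus strand), which lacks the CXXC domain of the other 2 enzymes, was at 16.1 and 15.4 CPM in control and 12.5, 16.2 and 13.6 in Dkk1_KO. These ranges overlap, with a log2 change of -0.16 ± 0.34 (95% interval -0.94 to 0.63, adjusted p = 0.743, edgeR's quasi-likelihood test). That interval includes changes of the size measured for Uhrf1. The IWP2 libraries were at 24.7 and 9.64 CPM, on either side of every other library but 1, and the IWP2_removed libraries at 26 and 21.4.

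**Figure D3:**
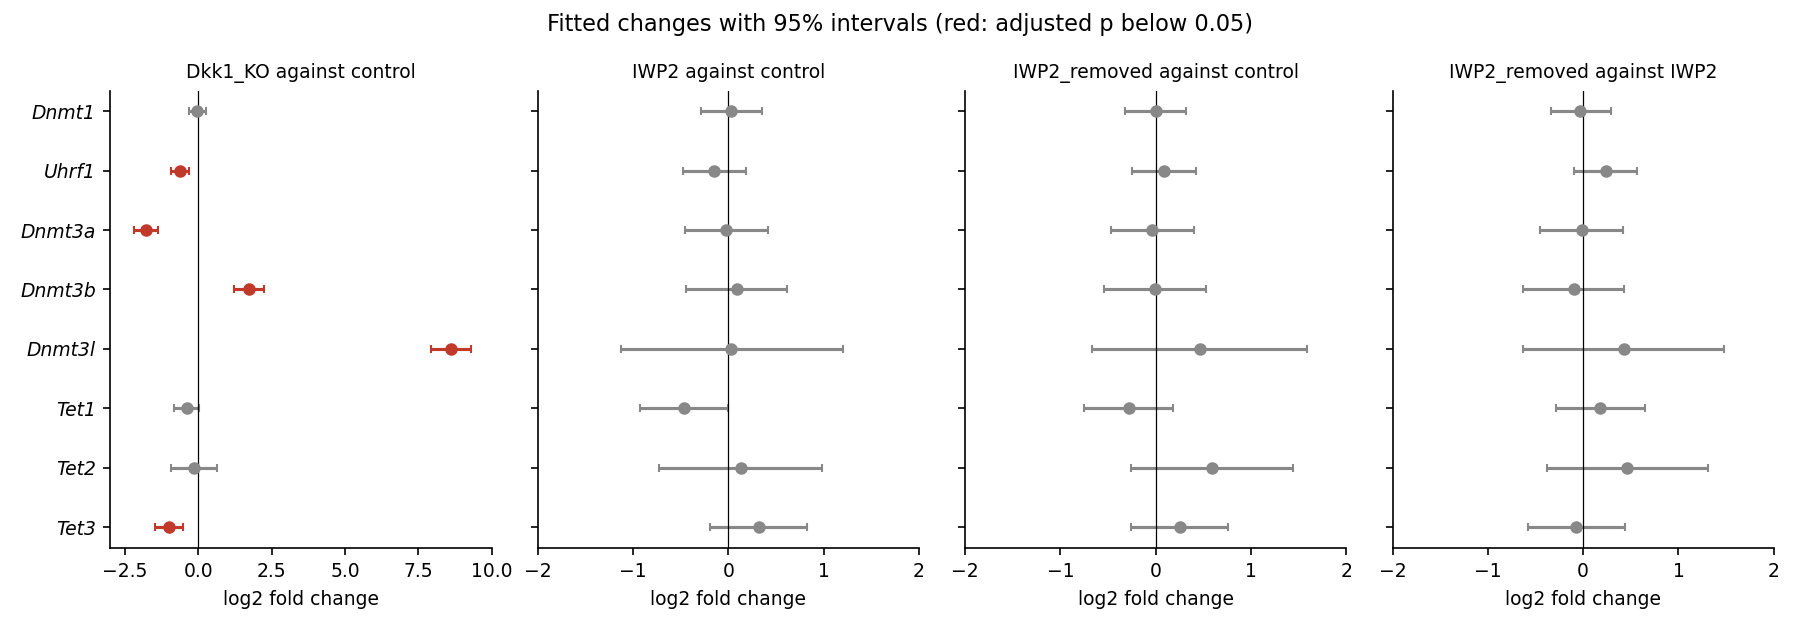
Log2 fold change of each member in the 4 comparisons, from the fit across all genes, with bars for 95% intervals and red points where the adjusted p was below 0.05. The first panel has a wider axis than the others. Red points occur only in Dkk1_KO against control, where they run from -1.78 for Dnmt3a to 8.61 for Dnmt3l.

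None of the members was called in IWP2 against control, in IWP2_removed against control or in IWP2_removed against IWP2. In IWP2 against control the count was 0 of 8 by edgeR, DESeq2 and limma, beside 2.19% of all tested genes. Tet1 alone had an unadjusted p under 0.05 there (log2 change -0.47 ± 0.20, adjusted p = 0.300, edgeR), at 72.2% of the control mean. In IWP2_removed against control the count was 0 of 8 by edgeR, DESeq2 and limma, with 0 at an unadjusted p under 0.05, beside 1.25% of all tested genes. The same counts held for IWP2_removed against IWP2, beside 0.0608% of all tested genes. The member medians of 0.03, 0.04 and 0.08 (log2) lay near the medians of all tested genes, 0.01, 0.00 and -0.01. These 3 comparisons share libraries pairwise, and those against control share the control libraries with the comparison of Dkk1_KO.

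The intervals show what size of change could have been missed. For Dnmt3a in IWP2 against control the log2 change was -0.02 with a 95% interval of -0.46 to 0.42, and for Dnmt3b it was 0.09 with -0.44 to 0.62. For Tet3 it was 0.32 with -0.19 to 0.83. For Tet2 in IWP2_removed against control it was 0.59 with -0.26 to 1.44, a mean of 151% of control, and both IWP2_removed libraries were above both control libraries. Changes of the size seen in the knockout line for Dnmt3a and Dnmt3b lie outside the intervals for these genes in IWP2. For Tet2 in IWP2_removed against control, a rise of 2-fold lies inside the interval. All these intervals rest on a spread shared by the 9 libraries. The Dkk1_KO libraries differed from each other by a chi-square per degree of freedom of 1.79 to 2.27, and the IWP2 libraries by 94.4. For the IWP2 groups the intervals may therefore be too narrow.

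The 2 IWP2 libraries differed from each other in several members, and this decides some of the calls. Dnmt3a was at 214 CPM in replicate 1 and 136 in replicate 2, Tet3 at 110 and 63.3, and Dnmt3b at 111 and 185. The order was thus opposite for Dnmt3b. The epiblast marker sum was 971 CPM in replicate 1 and 2250 in replicate 2, and the feeder sum 4600 and 3740, and the part of these in the spread was not tested. Without IWP2 replicate 1, Dnmt3a (log2 change -0.40, adjusted p = 0.0464) and Tet1 (-0.83, adjusted p = 0.0153) were called lower against control by edgeR, and Tet2 was called higher in IWP2_removed against IWP2 (1.30, adjusted p = 0.0366). Without IWP2 replicate 2, Tet3 was called higher against control (0.66, adjusted p = 0.0228).

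Levels of different members were compared per transcript length, in TPM over all transcripts of a gene. In control the order was Uhrf1 (116 and 99.4), Dnmt3a (60.5 and 49.3), Dnmt1 (48.6 and 47.8), Dnmt3b (32.1 and 28.2), Tet1 (7.28 and 4.56), Tet3 (5.14 and 4.44), Tet2 (2.81 and 1.93) and Dnmt3l (0.845 and 0.0568). The ranges of Tet1 and Tet3 overlapped, and those of Dnmt3a and Dnmt1 came close to each other without overlap. In Dkk1_KO Dnmt3b was the highest, at 76.5, 78.7 and 78.9 TPM, followed by Uhrf1 at 55.5, 63.5 and 59.5. Dnmt1 (41.6, 41.6 and 41.0) and Dnmt3l (40.7, 37.6 and 43.0) overlapped, and Dnmt3a was at 15.9, 15.8 and 7.17. Dnmt3l thus went from the lowest member to the level of Dnmt1.

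Short transcripts take part in some of these sums. For Dnmt3a, 10 of its 18 annotated transcripts are shorter than 1000 bases and held 25.4% to 75% of its TPM but 1.55% to 10.0% of its reads, depending on the library. Restricted to coding transcripts of at least 2000 bases, Dnmt3a was at 21.0 and 15.4 TPM in control, below Dnmt3b at 28 and 24.1. The order of the 2 de novo enzymes in control therefore depends on which transcripts are summed, while in Dkk1_KO Dnmt3b was the higher one either way, at 70.4, 73.1 and 74.6 against 3.71, 3.95 and 4.83 TPM.

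On that coding-transcript scale Dnmt3b made up 57.1% and 61.0% of the TPM of Dnmt3a and Dnmt3b together in control and 95%, 94.9% and 93.9% in Dkk1_KO. It made up 49.3% and 72.6% in IWP2 and 55.8% and 63% in IWP2_removed. The knockout libraries were above all others, and the control libraries lay inside the range of the IWP2 libraries. Over all transcripts the share was 34.7% and 36.4% in control against 82.8%, 83.3% and 91.7% in Dkk1_KO. The sum of Dnmt1, Dnmt3a and Dnmt3b over all transcripts was 141 and 125 TPM in control and 134, 136 and 127 TPM in Dkk1_KO, which overlap. Over coding transcripts of at least 2000 bases it was 95.9 and 84.2 TPM in control and 111, 115 and 118 TPM in Dkk1_KO, which do not overlap. On both scales a larger share came from Dnmt3b and a smaller one from Dnmt3a, whereas the summed level of the 3 enzymes was higher in Dkk1_KO on the second scale only.

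Among the 3 Tet genes, the summed level was 15.2 and 10.9 TPM in control, 7.49, 10.5 and 6.55 in Dkk1_KO, 16.7 and 7.17 in IWP2, and 12.1 and 11.4 in IWP2_removed. Over coding transcripts of at least 2000 bases it was 9.72 and 7.78 TPM in control, 4.51, 4.94 and 4.59 in Dkk1_KO, 11.9 and 5.15 in IWP2, and 9.45 and 8.27 in IWP2_removed, so the knockout libraries were the lowest. On this second scale Tet3 made up 52.5% and 56.4% of the Tet sum in control, 45.7%, 42.8% and 41.4% in Dkk1_KO, 65.7% and 67.0% in IWP2, and 57.5% and 60.3% in IWP2_removed. Tet1 made up 36.8% and 32.6% in control, 40.7%, 41.0% and 42.9% in Dkk1_KO, 22.8% and 28.5% in IWP2, and 27.0% and 26.4% in IWP2_removed. The share of Tet1 was thus highest in the Dkk1_KO libraries and lowest in the IWP2 groups, with control between them. Over all transcripts Tet1 was the largest share in control, at 47.8% and 41.7%, but short transcripts held 7.39% to 64.8% of Tet1 TPM and 0.223% to 2.69% of its reads, so which Tet gene leads in control depends on the transcripts summed.

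**Figure D4:**
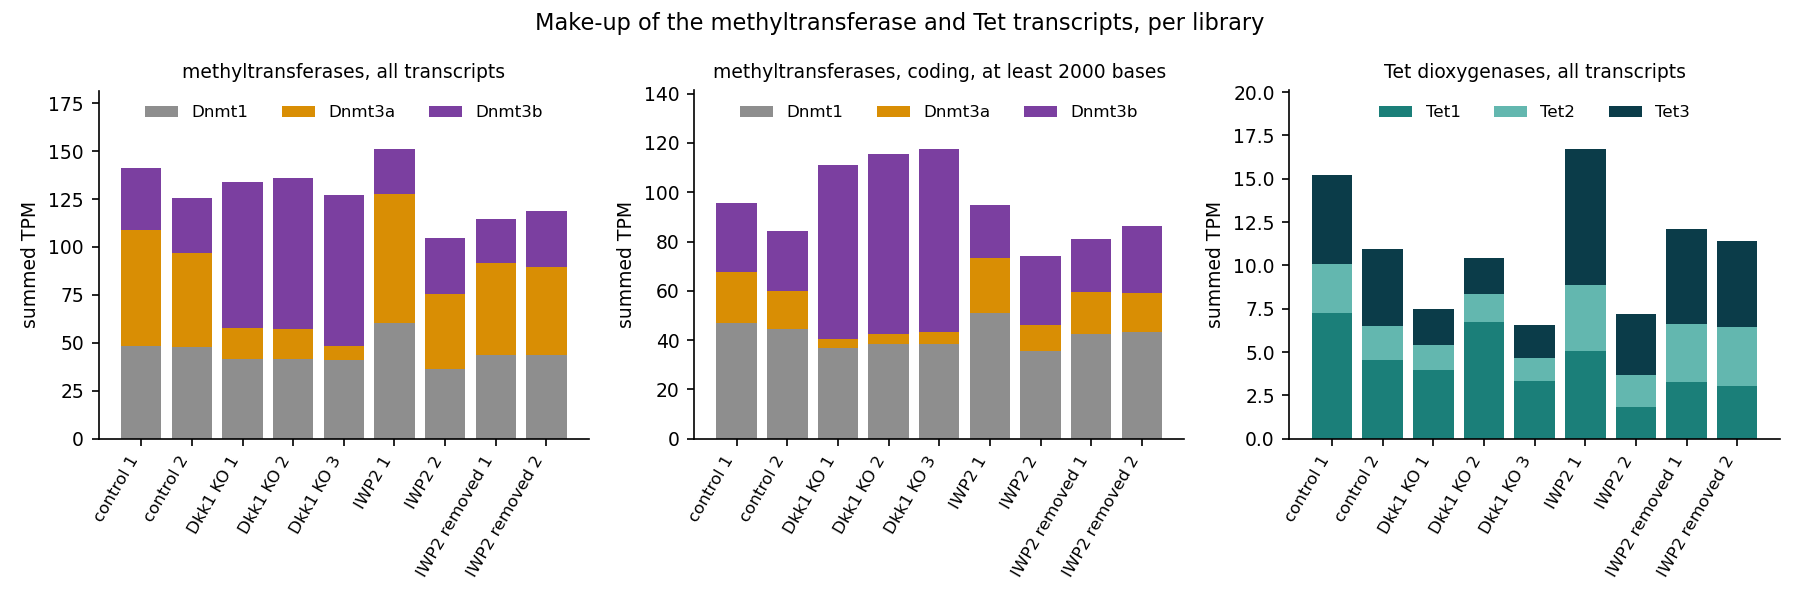
Stacked summed TPM per library of Dnmt1, Dnmt3a and Dnmt3b over all transcripts and over coding transcripts of at least 2000 bases, and of Tet1, Tet2 and Tet3 over all transcripts. In the coding-transcript panel Dnmt3b made up 93.9% to 95% of the TPM of Dnmt3a and Dnmt3b in the Dkk1_KO libraries and 49.3% to 72.6% in the other 6.

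Of 77 annotated member transcripts, 43 passed the filter and 6 were called in Dkk1_KO against control by edgeR, beside 11.1% of all 52793 transcripts tested. Higher were Dnmt3l-208 (log2 change 8.58 ± 0.89, adjusted p = 0.00167) and Dnmt3l-201 (11.76 ± 1.38, adjusted p = 0.00753), both with almost no reads in control. The calls of these Dnmt3l transcripts had to go up. Lower were Dnmt3a-201 (-2.23 ± 0.24, adjusted p = 0.00201), Dnmt3a-205 (-2.10 ± 0.44, adjusted p = 0.0251), Uhrf1-203 (-1.18 ± 0.20, adjusted p = 0.0113) and Tet3-202. Uhrf1-203 shares every stretch of 31 bases with other Uhrf1 transcripts, and Dnmt3a-205 has only 16 of its own, so both values are uncertain. The count was 3 without control replicate 2, 11 and 10 without IWP2 replicates 1 and 2, and 0 with the Dkk1_KO libraries averaged to 1. In the other 3 comparisons no member transcript was called by edgeR, with 3, 2 and 4 at an unadjusted p under 0.05, beside 0.0663%, 0.0114% and 0.0% of all transcripts. For the share of a transcript within its gene, limma's diffSplice called 1 member transcript in Dkk1_KO, Dnmt3b-202, whose reads cannot be told from those of other Dnmt3b transcripts, beside 1.28% of all 45965 transcripts tested. It called 0 in IWP2, IWP2_removed and IWP2_removed against IWP2, with 6, 5 and 0 at an unadjusted p under 0.05, beside 0.0413%, 0.0457% and 0.00218%. The planned diffSpliceDGE called 0, 0, 1 and 0 member transcripts in the 4 comparisons, with 5, 5, 3 and 4 at an unadjusted p under 0.05, beside 0.644%, 0.172%, 0.144% and 0.0609%.

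Genes that act with the members were read from lists. Over all tested genes, 44.3% were called in Dkk1_KO, 2.19% in IWP2 and 1.25% in IWP2_removed against control. The counts of called genes in the lists below stand beside these shares and are not read as results about a list. Of the 2 other genes of the methyltransferase family, Trdmt1, a tRNA methyltransferase, fell in Dkk1_KO (log2 change -0.71 ± 0.21, adjusted p = 0.0261, edgeR), and Dnmt3c did not pass the filter on low counts. In Dkk1_KO, the 12 partners of maintenance methylation held 1 gene higher and 5 lower, with a median log2 change of -0.32 against -0.03 for all tested genes. Cdca7l, a relative of the Hells activator Cdca7, fell most, from 67.3 and 70.3 CPM in control to 20.0, 20.3 and 19.0 (log2 change -1.80 ± 0.28, adjusted p = 0.0011, edgeR). The remodeller Hells (-0.79 ± 0.15), the deacetylase Hdac2 (-0.87 ± 0.16) and the replication clamp Pcna (-0.58 ± 0.18) also fell, in the direction of Uhrf1. Of 18 genes of S phase and proliferation, 3 were higher and 6 lower (median -0.13), with Tyms lower (-0.97 ± 0.15) and Ccne1 higher (0.97 ± 0.14). Mki67, the common proliferation marker, did not pass (log2 change 0.29, adjusted p = 0.23, edgeR).

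Of 21 tested genes that guide or protect methylation, Morc1 had a mean of 1 CPM or more in Dkk1_KO only, so its call had to go up, and of the other 20 genes 2 were higher and 6 lower in Dkk1_KO (median -0.14). Cxxc4, whose CXXC domain binds CpG, fell most, from 27.4 and 27.0 CPM in control to 1.12, 0.911 and 1.06 (log2 change -4.71 ± 0.25, adjusted p = 4.83e-06, edgeR). Trim28, the corepressor of imprint-protecting zinc-finger proteins, fell from 734 and 774 CPM to 443, 449 and 444, and Zfp445, one such zinc-finger protein, fell by 0.76 ± 0.11 on the log2 scale. In IWP2 against control 2 genes of this list rose, Zfp57 (0.74 ± 0.11, adjusted p = 0.0207) and Cxxc5 (0.74 ± 0.13, adjusted p = 0.0292). In IWP2_removed against control Setdb1, a histone methyltransferase that works with Trim28, rose from 124 and 100 CPM to 234 and 214 (1.0 ± 0.14, adjusted p = 0.0199, edgeR). The IWP2 libraries were at 120 and 106. The calls of Zfp57, Cxxc5 and Setdb1 draw on a spread shared with the Dkk1_KO libraries. Without those libraries, calls over all genes went from 396 to 12 in IWP2 and from 227 to 1 in IWP2_removed. Calls of single genes in these 2 comparisons carry that limit.

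Of 17 tested genes for the removal of oxidised or deaminated bases, 4 were higher and 4 lower in Dkk1_KO (median -0.07). Gadd45b, a stress-induced gene linked to repair-based demethylation, was at 8.99 and 9.20 CPM in control, 47.6, 47.4 and 50.5 in Dkk1_KO, 5.45 and 4.18 in IWP2, and 4.42 and 4.59 in IWP2_removed. It rose in Dkk1_KO (2.41 ± 0.16, adjusted p = 1.29e-05) and fell in IWP2 (-0.92 ± 0.17, adjusted p = 0.0363) and IWP2_removed (-1.01 ± 0.17, adjusted p = 0.0379) by edgeR's test. Gadd45g rose in Dkk1_KO (1.88 ± 0.19) and in IWP2 (1.48 ± 0.20, adjusted p = 0.013). The cytidine deaminase Apobec3 fell in both (-1.23 ± 0.12 and -0.87 ± 0.13), and the endonuclease Apex1 fell in Dkk1_KO (-1.09 ± 0.21). The calls of these genes in IWP2 and IWP2_removed carry the limit given above for Zfp57, Cxxc5 and Setdb1.

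Among the 9 methyl-CpG readers, 2 were higher and 3 lower in Dkk1_KO (median 0.25), with Mbd6 higher (0.59 ± 0.12) and Zbtb33 (-0.79 ± 0.18) and Mbd3 (-0.55 ± 0.14) among those lower. Of 15 tested genes of the methyl donor cycle, Mat1a and Gnmt had a mean of 1 CPM or more in Dkk1_KO only, and of the other 13 genes 5 were higher and 3 lower (median 0.28). Gldc, which feeds one-carbon units from glycine, rose from 54.9 and 53.8 CPM to 265, 260 and 264, Cbs rose by 2.02 ± 0.18 on the log2 scale, and Mat2b fell by 1.18 ± 0.12. Of 13 genes of 2-oxoglutarate and ascorbate supply, which provide Tet cosubstrates, 4 were higher and 3 lower (median 0.30) when the ascorbate transporter Slc23a1 was left out. Slc23a1 reached a mean of 1 CPM in Dkk1_KO only, so its call had to go up, and it was at 0.623 and 0.622 CPM in control and 20.5, 17.2 and 16.3 in Dkk1_KO. No gene of these lists was called in IWP2_removed against IWP2.

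Germline genes known to be silenced by promoter methylation were read as levels. Of 14 listed, 11 passed the filter on low counts, and 9 of these had a mean of 1 CPM or more in Dkk1_KO only, so their calls had to go 1 way and are not counted. Tex19.1 was at 0.89 and 1.12 CPM in control and 240, 233 and 237 in Dkk1_KO. Ddx4, a germ cell RNA helicase, was at 0.267 and 0.249 CPM in control and 10.8, 11.7 and 11.1 in Dkk1_KO. Taf7l was at 0.089 and 0.0622 CPM in control and 22.7, 21.5 and 20.4 in Dkk1_KO. Stk31 had 0 reads in both control libraries and 671 in the Dkk1_KO libraries together, at least 135-fold higher against a floor of 3 reads over the control group, and Mael was at least 29.0-fold higher on the same floor. Hormad1, Asz1 and Fkbp6 did not pass the filter. Methylation at these genes was not measured.

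**Figure D5:**
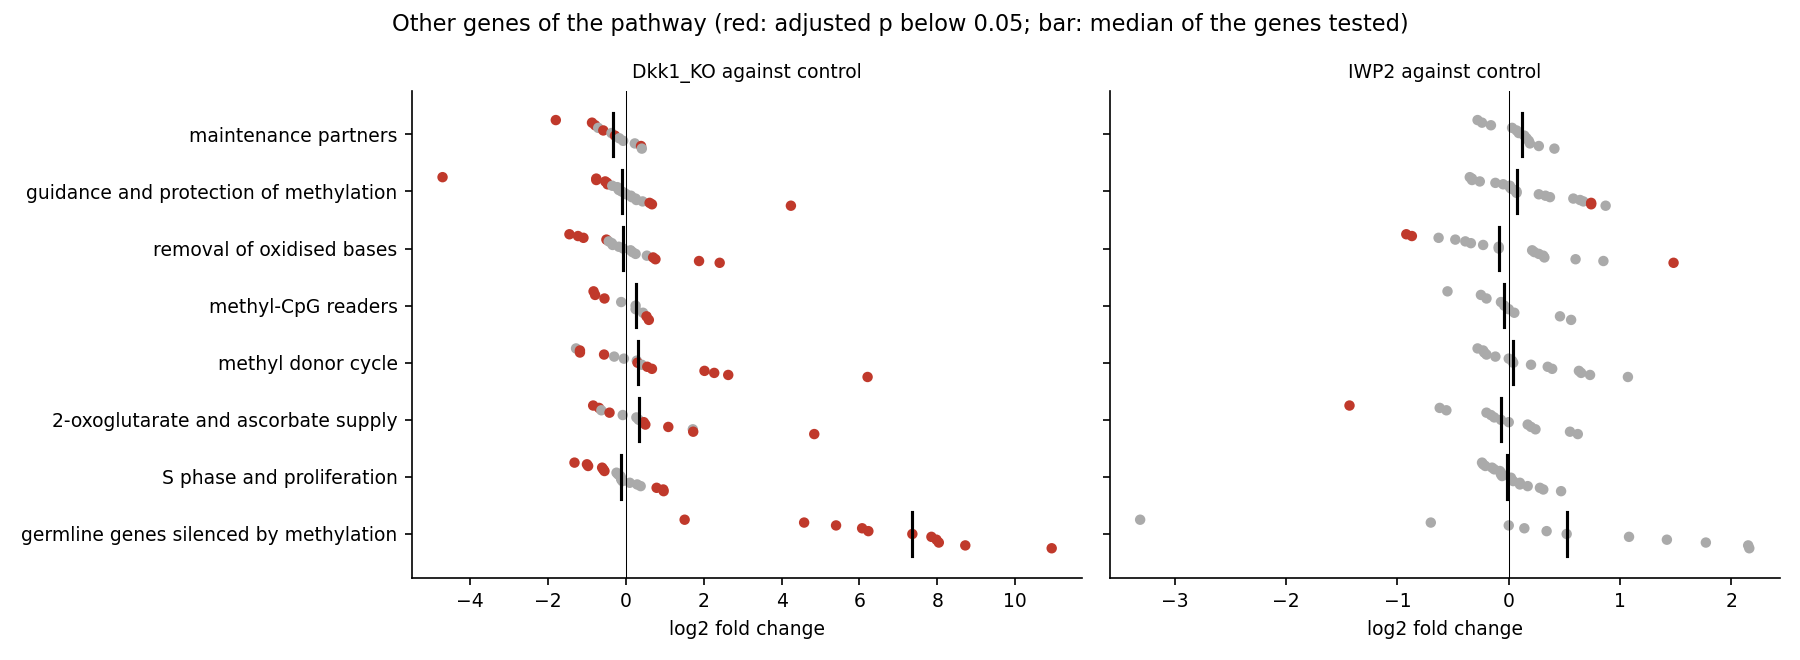
Log2 fold change of each tested gene of the pathway lists in Dkk1_KO against control and in IWP2 against control, 1 row per list, with red points where the adjusted p was below 0.05 and a bar at the median of all its tested genes. In Dkk1_KO the medians of the plotted lists other than the germline genes lie between -0.32 and 0.33, and the germline genes, whose control counts were close to 0, lie far to the right.

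The genes whose pattern over the 9 libraries was most like that of a member were taken by the root mean square difference of centred log2 CPM, among 11320 protein-coding genes that averaged 5 CPM or more. For Dnmt3l they were Rhox13 (0.29 log2 units), Xlr5a (0.321) and Fthl17a (0.343). Xlr5a and Fthl17a belong to X-linked families of near-identical copies, between which reads can be split, and are uncertain. For Dnmt3b they were Abhd14b (0.135), Zswim1 (0.135) and Gstt3 (0.14). For Dnmt3a they were Baz2b (0.0828), Zc3h7b (0.0999) and Rbms3 (0.103). Uhrf1 was closest to Mcm3 (0.0778), a subunit of the replicative helicase, Tet1 to Rif1 (0.0633), Tet3 to Zmym3 (0.113), Tet2 to Ppp1r12b (0.197) and Dnmt1 to Phka2 (0.0562). These distances are a description over 9 libraries in 4 groups, in which the Dkk1_KO libraries stood apart from the rest. The root mean square spread of the member itself was 0.0818 for Dnmt1, 0.244 for Tet1 and 0.313 for Uhrf1, against 3.73 for Dnmt3l. Many genes lie close to members with so little spread, and their closest gene is not particular to them.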

How the data were processed

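Messenger RNA from 9 libraries was sequenced after a strand-specific preparation, per the labels' protocols. The authors deposited, per library, estimated counts and TPM for each of 133618 transcripts from Salmon, per the submitters' processing notes, which also name DESeq2 and edgeR; the aligner index, genome build and settings are not given in the sources used here. Transcript IDs matched the GENCODE annotation of GRCm38 for 133399 transcripts, 2166 of them in another version. Each gene's estimated counts were added up and rounded to whole numbers, and the 18096 genes that passed filterByExpr were fitted with edgeR 4.0.16 (TMM, quasi-likelihood, 1 mean per group over all 9 libraries); p-values were adjusted by Benjamini and Hochberg over all genes, with 0.05 as threshold, and intervals use the fit's degrees of freedom. CPM values are TMM-scaled. Transcripts were fitted likewise. The planned test of transcript shares, edgeR's diffSpliceDGE, made mostly false calls on simulated data, so limma 3.58.1's diffSplice, added afterwards, is reported. The main edgeR fits of genes and of transcripts and both share tests were run on simulated data. The alternative settings and the fits of summed Dnmt3a and Dnmt3b forms were not. DESeq2 1.42.0, limma on log2(TPM + 1), other scalings, filters, blocks and left-out libraries were alternatives.

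Named genes were all 8 members and, from each list, up to 4 called genes with the smallest adjusted p, or else the 2 most abundant; some genes that this rule names are not reported here. Single transcripts were read where they held at least 10% of their gene's TPM. The members and lists were chosen with earlier results of these data known.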

Additional observations from a re-analysis of the deposited data

How the results depend on the processing

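In Dkk1_KO against control the count of called members was 5 and became 3 when the Dkk1_KO libraries were averaged to 1 (5 to 6 with a library left out). Called member transcripts numbered 6 there, 2 with a replicate block, 3 with a replicate block by file letter, 0 with the Dkk1_KO libraries averaged, and 3 to 11 with a library left out (3 without control replicate 2, 11 and 10 without IWP2 replicate 1 and 2). Changed shares of member transcripts there numbered 0 by diffSpliceDGE and 1 by limma (0 to 2 with a library left out, 2 without either IWP2 library), and in IWP2_removed against control 1 by diffSpliceDGE and 0 with either block, with the Dkk1_KO libraries averaged or by limma (0 to 1 with a library left out, 1 only without control replicate 2, IWP2 replicate 1 or IWP2 replicate 2). In IWP2 against control, leaving out a library gave 0 to 2 called members, 0 to 5 transcripts and 0 to 2 shares, and in IWP2_removed against IWP2 0 to 1, 0 to 2 and 0 to 2, the highest in each case without IWP2 replicate 1. The replicate numbers share no stated culture or day, and same-numbered libraries correlated by -0.056 to 0.5. Among control and the 2 IWP2 groups, each with only 2 libraries, the range was 0.334 to 0.5, and the same number there meant the same file letter. What the letter stands for is not stated. The main fit assumed no pairing, and these correlations are not a reason for that choice. A block by the letter that the deposited files carry brought the share of the 60-base exon in IWP2 to an adjusted p of 0.0333 (limma). The replicate block left the called members at 5, 0, 0 and 0.

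No called value changed direction. Values that were not called did, and in IWP2 against control they turned under limma on log2(TPM + 1) for Dnmt1 (-0.04), Dnmt3b (-0.19) and Dnmt3l (-0.13), and under a transcript length offset for Dnmt3a (0.09) and Dnmt3b (-0.01). In IWP2_removed against control they turned without a filter on low counts for Dnmt3b (0.02) and under limma for Dnmt3l (-0.09) and Uhrf1 (-0.10). In IWP2_removed against IWP2 they turned for Dnmt3a without a filter (0.02) and with either block (0.01), and for Tet1 with the length offset (-0.10). The cause was not tested. With a library left out, log2 changes ran from -0.12 to 0.08 for Dnmt1 in Dkk1_KO, above 0 without control replicate 2. In IWP2 against control they ran from -0.11 to 0.14 for Dnmt1, -0.40 to 0.26 for Dnmt3a, -0.33 to 0.40 for Dnmt3b, -0.61 to 0.82 for Dnmt3l, -0.72 to 0.64 for Tet2 and -0.14 to 0.66 for Tet3. In IWP2_removed against control they ran from -0.23 to 0.18 for Dnmt3b, -0.20 to 1.24 for Dnmt3l and -0.08 to 0.23 for Uhrf1. In IWP2_removed against IWP2 they ran from -0.14 to 0.11 for Dnmt1, -0.30 to 0.35 for Dnmt3a, -0.42 to 0.32 for Dnmt3b, -0.09 to 0.54 for Tet1, -0.05 to 1.30 for Tet2 and -0.41 to 0.38 for Tet3. The share changes ran from -0.29 to 0.21 for the short Dnmt3a form in that comparison, -0.47 to 1.58 for the 60-base exon in Dkk1_KO and -0.17 to 0.07 for the exon pair in IWP2.

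Over all genes, calls in Dkk1_KO numbered 8018, 2725 with the Dkk1_KO libraries averaged, 5037 by limma and 6143 to 9692 with a library left out. They numbered 396 in IWP2 (1 to 2432 over all settings; 230 higher and 166 lower, against 59 and 95 by limma, where the median of all genes was -0.11), 227 in IWP2_removed (1 to 738) and 11 between the IWP2 groups (0 to 454), with the most calls in these 3 comparisons when an IWP2 library was left out. Without the Dkk1_KO libraries, calls numbered 12 in IWP2, 1 in IWP2_removed and 1 between the IWP2 groups. With 2 libraries in 3 of the groups, depth limits mainly Dnmt3l outside Dkk1_KO, where each library held 2 to 5 reads.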
